A study of Mus musculus with 12 samples.

Results

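The epithelium of the ileum was compared between mice that lost Nfat5 in the intestinal epithelium and floxed control mice, over every transcript cluster of the array that carried a gene symbol. A transcript cluster is a set of probes that the array reports as 1 gene-level value. The table held 41345 clusters, of which 25341 carried a symbol and were all tested, with no filter on level, and 23521 of these carried exactly 1 symbol. The series comprised 12 Affymetrix arrays of total RNA, 3 in each of 4 groups: small intestinal epithelial cells (S-IECs, taken from the ileum) and colonic epithelial cells (L-IECs), each from Nfat5fl/fl and Nfat5IEC-KO mice. All mice were 11 weeks old and received no treatment, and the study describes its animals as males on the C57BL/6J background. Nfat5fl/fl mice carried floxed Nfat5 alleles and are listed with no Cre. Nfat5IEC-KO mice carried the same floxed alleles with Vil-Cre, a Cre driven by the promoter of Villin, which is active in epithelial cells of both small and large intestine. An effect of the Cre transgene and one of the lost alleles cannot be told apart with these controls. Cells were freed from the tissue with EDTA, with no sort by cell type described, so that each array read a mixed epithelium. In such bulk RNA, fewer cells of a type and less RNA per cell cannot be told apart. The labels number the mice 1 to 3 in each group but do not say whether they were littermates. The same genotype and number occur in both tissues, so S-IECs and L-IECs arrays of 1 number may come from 1 mouse.

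NFAT5, also called TonEBP, is a transcription factor that cells use to adapt to hypertonic surroundings. It binds a DNA element known as TonE and turns on genes that take up or make small organic osmolytes, among them the taurine transporter and aldose reductase, and genes of the HSP70 chaperones. The ileal epithelium renews itself from stem cells at the base of its crypts. Dividing progenitors, which make many ribosomes, and Paneth cells, which secrete antimicrobial peptides, lie in the crypt, while mature enterocytes on the villus carry the brush border enzymes and the transporters that digest and absorb nutrients.

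Levels are given as the deposited log2 values, and a difference is Nfat5IEC-KO minus Nfat5fl/fl in S-IECs with its standard error, n = 3 arrays a group. With limma and Benjamini-Hochberg adjustment over all 25341 clusters, the metallothioneins Mt1 and Mt2 were higher at the adjusted threshold of 0.05 (2 clusters, 0.00789% of those tested) and 0 clusters were lower (0%). Before adjustment, p was under 0.05 for 2085 clusters in the lower and 1473 in the higher direction. The term "called" is used below for a difference of at least 1.5-fold at an unadjusted p under 0.05, which 496 clusters met as lower (1.96%) and 178 as higher (0.702%). Except for Mt1 and Mt2, none of these calls passed the adjusted threshold in the 6 S-IECs arrays, and where an adjusted p "over 12 arrays" is given, it comes from the same contrast fitted together with the L-IECs arrays. That fit pools the spread of both tissues, so its p-values do not measure the spread among the ileal arrays alone. Fitted apart, the standard error was 0.24 in S-IECs and 0.1 in L-IECs for Ccnd2, and 0.34 and 0.51 for Mid1. In the fit of 12 arrays 305 of the clusters called lower and 76 of those called higher had an adjusted p under 0.05. With arrays of the same genotype and mouse number in both tissues as a random block, these were 306 and 76, and the deviations of such arrays from their group means correlated by -0.04 to 0.05. The 2 groups did not overlap, with all Nfat5IEC-KO arrays below, at 2630 clusters (10.4%), and with all of them above at 2484 (9.8%). The median difference over all clusters was 0.01.

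The arrays read as ileal epithelium. The mean level of 11 epithelial markers lay between 9.94 and 9.99 on the Nfat5fl/fl arrays and between 9.8 and 9.95 on the Nfat5IEC-KO arrays, and that of 11 genes of ileal enterocytes lay between 11.3 and 11.4 in both groups. Fabp6, the ileal bile acid binding protein, read 12.5 on each Nfat5fl/fl array and 12.3, 12 and 12.5 on the Nfat5IEC-KO arrays. Among 91 markers of gastric, pancreatic, T, B, myeloid, stromal, enteroendocrine and tuft cells, 0 were called. Over all clusters, 1.96% were called lower and 0.702% higher. Of 10 colon epithelium markers, 1 was called lower: Car1, whose uneven control values are given with the carbonic anhydrases below. The mean of that list deviated from the Nfat5fl/fl mean by -0.41, 0.26 and 0.15 on Nfat5fl/fl arrays 1, 2 and 3. On Nfat5IEC-KO arrays 1, 2 and 3 it deviated by -0.33, -0.42 and -0.19. RNA of intraepithelial lymphocytes was present in both groups, with a mean level of the T cell list between 4.82 and 5.21 on the Nfat5fl/fl arrays and between 4.93 and 5.29 on the Nfat5IEC-KO arrays, and with Cd3e between 6.73 and 7.73. Crypt markers, in contrast, were called lower in 7 of 18 stem cell genes and 10 of 13 Paneth cell genes. They were also called lower in 4 of 13 goblet cell genes and 9 of 23 mitosis genes, and 0 of all these were called higher. Without Nfat5IEC-KO array 2 the goblet cell count was 8 and the mitosis count 19, and without Nfat5fl/fl array 1 the mitosis count was 17. The lowest goblet cell count was 3, without Nfat5IEC-KO array 1 or Nfat5fl/fl array 2. The lowest mitosis count was 8, without Nfat5IEC-KO array 1 or 3 or Nfat5fl/fl array 3. Mice differed in this respect. The mean of the Paneth cell list deviated from the Nfat5fl/fl mean by -1.32 and -1.36 on Nfat5IEC-KO arrays 1 and 3 but by -0.24 on array 2, which also lay nearest to the control arrays on the first principal component (38.3% of the variance). Nfat5fl/fl array 1 deviated by -0.23 on that list. On the stem cell, goblet cell and mitosis lists it deviated by -0.17, -0.13 and -0.26, and Nfat5IEC-KO array 2 by -0.19, -0.14 and -0.24. These list means thus did not separate those 2 arrays. The part of this shift in crypt markers in the results below was not tested.

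The Nfat5 cluster (chromosome 8) read 8.03, 8.03 and 8.17 on the Nfat5fl/fl arrays and 8.08, 7.84 and 8.01 on the Nfat5IEC-KO arrays. The groups overlapped, and the difference of -0.10 ± 0.12 (adjusted p = 0.763, limma) was smaller than its error. The sources used here do not place its probes against the floxed part of the gene, so this value does not check the genotype labels, which are used as given. In L-IECs the same cluster differed by -0.55 ± 0.09 (adjusted p = 0.544, limma).

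To show the letters behind the regulators discussed below, stretches of 30 bases upstream of the start site are given for named genes whose promoter held an element of interest. Sequences are RefSeq promoters of build GRCm38.p6, written 5′ to 3′ on the strand of the gene, and the capitals mark the match. Only the first listed promoter of each gene was read, so its other start sites were not searched. For Per1 and Slc39a8 the stretch lies inside the span of the gene, upstream of a start within it. The heat shock element, bound by heat shock factors and searched as 3 blocks that alternate between TTC and GAA with any 2 bases between blocks, was found upstream of 4 genes called lower:
Hspe1 (chr1:55088053-55088082, + strand): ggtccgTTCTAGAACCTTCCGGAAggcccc
Slc39a8 (chr3:135825180-135825209, + strand): ctcagcttTTCTTGAACCTTCgtctgagca
Pus7 (chr5:23783929-23783958, - strand): ctatgatgGAATCTTCTTGAAgacagtcct
Dnmt1 (chr9:20959966-20959995, - strand): cagtggagGAAACTTCTAGAAacatctcca
In Hspe1 the capitals cover 2 overlapping matches.

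TonE, the element of NFAT5 itself, lay upstream of the start, on either strand, in 3 genes called lower and 6 called higher. It is shown for those 3 and, of the 6, only for the clock gene Nr1d1:
Nolc1 (chr19:46075661-46075690, + strand): gccagggctTGGAAATCTACagtaggaaga
Dhrs9 (chr2:69380355-69380384, + strand): cgattccttTGGAAACCTGTgacctacaat
Polr1b (chr2:129100903-129100932, + strand): cgccatggtGTAAGTTTCCAgtcgactctg
Nr1d1 (chr11:98775565-98775594, - strand): ttgccatacAAGGCTTTCCAaacacgccac
Nr1d1 (chr11:98775378-98775407, - strand): tcaacgtgccggctgcTGGAAAAGTGTgtc
The E-box CACGTG, a site for clock proteins and for MYC, is shown in 3 of the genes called lower:
Per1 (chr11:69098771-69098800, + strand): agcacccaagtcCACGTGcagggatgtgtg
Fkbp5 (chr17:28486301-28486330, - strand): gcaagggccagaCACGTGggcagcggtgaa
Nme1 (chr11:93968273-93968302, - strand): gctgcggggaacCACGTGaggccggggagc

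Over the whole 300-base windows (250 bases before the start and 50 after), the heat shock element occurred in 85 of 16918 promoters of tested genes (0.502%), in 7 of 355 of genes called lower (1.97%) and in 0 of 118 of genes called higher. TonE occurred in 4.43% of all promoters, in 1.97% of those of genes called lower and in 5.93% of those of genes called higher. For the E-box the shares were 8.2%, 11.3% and 8.47%. The stretches printed above lie in the 250 bases before the start. In that part alone the E-box shares were 6.87% of all promoters, 7.04% for genes called lower and 7.63% for genes called higher. In the same order, those of TonE were 3.94%, 0.845% and 5.08%, and those of the heat shock element 0.408%, 1.13% and 0%. Both strands were read, and matches to different motifs overlapped in 12 promoters. Base composition differed as well, with a median GC content of 56.3% over all promoters, 59.7% for genes called lower and 51.3% for genes called higher, and its part in these shares was not tested.

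The 12 largest differences in each direction are described first, among called clusters whose groups did not overlap and outside the metallothioneins, the HSP70 genes and the stem, Paneth and goblet cell lists. Enpp3 led the higher side and Hsph1 the lower side of that set. Enpp3, a brush border enzyme that cleaves extracellular nucleotides (chromosome 10, 24773814 to 24836195 in mm10), read 7.64, 7.26 and 7.20 on the Nfat5fl/fl arrays and 9.02, 9.24 and 8.62 on the Nfat5IEC-KO arrays. All Nfat5IEC-KO values lay above all control values, and the difference was 1.59 ± 0.18, or 3.01-fold (adjusted p = 0.0899, limma; 0.00838 over 12 arrays). Npl, the lyase that opens the breakdown of sialic acid, differed by 1.33 ± 0.26. Leap2, a secreted peptide that blocks the ghrelin receptor, read 4.86, 4.92 and 4.44 in controls and 6.33, 5.79 and 5.41 in Nfat5IEC-KO mice, a gap of 1.10 ± 0.23. Trim38, a ubiquitin ligase of innate immune signalling, and B3galt5, a galactosyltransferase that builds glycolipid and glycoprotein chains, were higher by 1.0 ± 0.26 and 0.99 ± 0.18. The olfactory receptor gene Olfr165 was also among the 12, at low levels (3.38 to 3.93 in controls and 4.57 to 4.91 in Nfat5IEC-KO mice).

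On the lower side, Hsph1 (chromosome 5), an HSP110 chaperone that works with HSP70, read 8.21, 8.32 and 7.31 on the Nfat5fl/fl arrays and 5.41, 6.33 and 5.81 on the Nfat5IEC-KO arrays. Its difference of -2.10 ± 0.30 (adjusted p = 0.112, limma; 0.0126 over 12 arrays) was 4.28-fold, and in L-IECs it differed by -1.48. Cyclin D2 (Ccnd2), which drives entry into the cell cycle, read 9.29, 9.61 and 9.42 in controls and 7.89, 8.93 and 8.15 in Nfat5IEC-KO mice. Array 2 of the Nfat5IEC-KO mice was again the closest to controls. Mboat1, which reloads fatty acids onto lysophospholipids, did not follow that order, with 6.65, 6.67 and 6.81 on the Nfat5IEC-KO arrays against 7.38, 8.08 and 8.20 (-1.17 ± 0.2). Mid1, a microtubule-associated ubiquitin ligase, was lowest on Nfat5IEC-KO array 2, at 6.96, against 8.47 and 8.34 on the other two and 9.16 to 9.40 in controls. Its 2 clusters differed by -1.33 and -0.91. The rest of the 12 were Pla2g10os, Samd5, Tceal9, Gnl3, Tmed6, A4gnt, Nkrf and Shcbp1, with differences from -1.39 to -1.08.

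**Figure D1:**
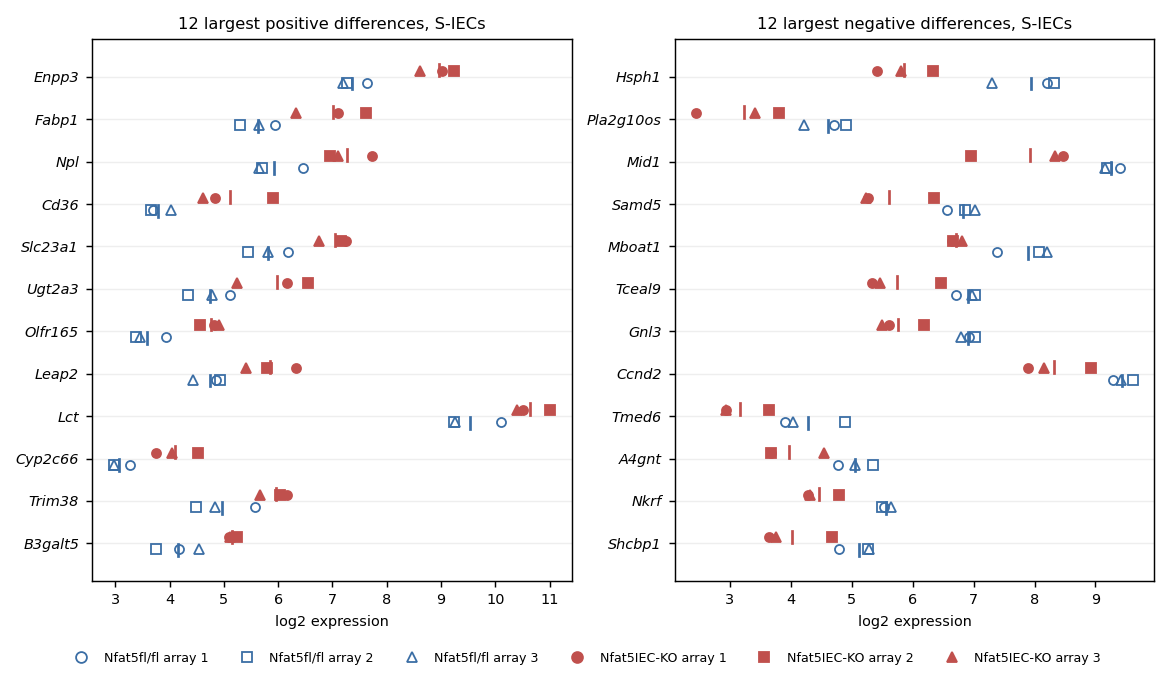
Log2 expression (x axis) of the 12 largest positive and 12 largest negative differences, 1 gene a row; open symbols are the 3 Nfat5fl/fl arrays, filled symbols the 3 Nfat5IEC-KO arrays, and vertical ticks the group means. The groups do not overlap in any row because the rule asked for that; Enpp3 lies between 7.20 and 7.64 in controls and between 8.62 and 9.24 in Nfat5IEC-KO mice.

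Of 361 solute carriers measured, 14 were called lower (3.88%) and 10 higher (2.77%), with a median difference of 0.04. Over all clusters 1.96% were called lower and 0.702% higher, and each list count below is to be read beside these shares. Of 14 sugar transporters, 5 were called higher (35.7%) and 1 lower (7.14%), with a median of 0.47. The fructose transporter Slc2a5 (GLUT5) read 7.20, 7.42 and 7.26 on the Nfat5fl/fl arrays and 8.30, 8.12 and 7.97 on the Nfat5IEC-KO arrays (0.84 ± 0.13, adjusted p = 0.112, limma; 0.0218 over 12 arrays). Slc5a11, which takes up myo-inositol with sodium, read 8.0, 7.73 and 7.69 against 8.6, 8.5 and 8.49 (0.72 ± 0.12). In each of these genes all Nfat5IEC-KO arrays lay above the controls. Slc5a4a and Slc5a4b, which encode SGLT3 proteins, differed by 0.86 ± 0.17 and 0.87 ± 0.18. As close paralogs side by side on chromosome 10 they may share hybridisation, and are not independent. Slc2a2 (GLUT2), the exit route for sugars, was called higher (0.71 ± 0.27) with overlap, since Nfat5IEC-KO array 3 read 8.61 and the controls reached 8.79. The main glucose carrier of the brush border, Slc5a1 (SGLT1), was not called, with values of 10.8 to 11.1 in controls and 10.9 to 11.2 in Nfat5IEC-KO mice (0.11 ± 0.13). Slc50a1, a sugar carrier of the SWEET family, was the member called lower (-0.68).

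Lipid carriers gave 4 calls of 20, all higher (20%, against 0.702% of all clusters), with a median of 0.30. Fabp1, the liver-type fatty acid binding protein that enterocytes of the upper small intestine make in large amounts, read 5.94, 5.29 and 5.64 in controls and 7.10, 7.62 and 6.32 in Nfat5IEC-KO mice (1.39 ± 0.30, adjusted p = 0.134, limma; 0.0408 over 12 arrays). Cd36, a fatty acid translocase, read 3.69, 3.65 and 4.02 against 4.83, 5.90 and 4.61 (1.32 ± 0.30). For both, array 2 of the Nfat5IEC-KO mice was the highest of all 6. Apoa4, an apolipoprotein of chylomicrons, was higher by 0.85 ± 0.24 and Apoc2 by 0.61 with overlap. The cholesterol uptake protein Npc1l1 lay below the fold limit, at 0.47 ± 0.13, with the groups apart.

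Of 22 vitamin, nucleoside and carboxylate transporters, 3 were called higher and 0 lower, with a median of 0.08. Slc23a1, the sodium-dependent vitamin C transporter (chromosome 18), read 6.19, 5.44 and 5.82 in controls and 7.24, 7.15 and 6.75 in Nfat5IEC-KO mice (1.23 ± 0.20, adjusted p = 0.121, limma; 0.014 over 12 arrays). Slc5a6, which carries biotin and pantothenate, was higher by 0.59 ± 0.15, and the lactate carrier Slc5a12 by 0.65 ± 0.24 with overlap. In the list of iron, copper, zinc and magnesium transport, 1 was called higher and 2 lower of 22. The one called higher was Slc46a1, which also carries heme but is best known as the proton-coupled folate transporter, with 6.34, 6.42 and 6.44 in controls and 7.24, 7.30 and 7.27 in Nfat5IEC-KO mice. That gap of 0.87 ± 0.10 had an adjusted p of 0.0949 (limma; 0.014 over 12 arrays). The transferrin receptor Tfrc, which takes up iron from blood and marks dividing cells, read 8.08, 8.04 and 8.19 in controls and 6.99, 7.65 and 7.29 in Nfat5IEC-KO mice (-0.79 ± 0.16), while the apical iron importer Slc11a2 (DMT1), not called, differed by 0.50 ± 0.12 and the ferroxidase Heph by 0.29 ± 0.10. Slc39a8, a zinc and manganese importer whose promoter holds the heat shock element shown above, was called lower (-0.75 ± 0.18).

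Of 30 amino acid carriers, 6 were called lower and 0 higher, and the list's median was 0.07, near that of all clusters. Slc38a2 (SNAT2), a carrier of small neutral amino acids that is induced by hypertonicity, read 8.62, 8.64 and 8.66 on the Nfat5fl/fl arrays and 7.39, 7.92 and 7.55 on the Nfat5IEC-KO arrays (-1.02 ± 0.15, adjusted p = 0.112, limma; 0.00838 over 12 arrays). The cationic amino acid carriers Slc7a1 and Slc7a6 differed by -0.93 ± 0.20 and -0.98 ± 0.20. Slc7a5 (LAT1), the leucine carrier that feeds growing cells, read 6.72, 6.87 and 6.62 against 5.93, 6.15 and 5.83 (-0.77 ± 0.13). The neutral carriers Slc1a5 and Slc1a4 differed by -0.72 and -0.70, with a dimmer Slc1a5 cluster at -0.21. Luminal carriers of the absorptive cell had other values: the peptide transporter Slc15a1 (PEPT1) differed by 0.43 ± 0.12, Slc7a9 by 0.30 ± 0.10 and the neutral carrier Slc6a19 by -0.07 ± 0.13.

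Channels had 4 lower calls and 0 higher of 169 (2.37%, near the 1.96% of all clusters), with a median of 0.07, and 2 lower without Nfat5IEC-KO array 1. Kcnn4, the calcium-activated potassium channel of the basolateral membrane, read 7.29, 7.49 and 7.12 in controls and 6.05, 6.73 and 6.22 in Nfat5IEC-KO mice (-0.97 ± 0.18, adjusted p = 0.13, limma; 0.0203 over 12 arrays). The potassium channel subunit Kcne3 differed by -0.86 ± 0.20, and the potassium channels Kcnk6 and Kcnk1 by -0.68 and -0.65. Of 24 genes of sodium, chloride, bicarbonate and phosphate transport, 2 were called lower and 1 higher. The chloride loader Slc12a2 (NKCC1), which is also on the stem cell list, differed by -0.86 ± 0.24. In Kcnn4, Kcne3 and Slc12a2, array 2 of the Nfat5IEC-KO mice lay nearest to controls, as it did for the crypt markers, whose part here was not tested. Scnn1a, the alpha subunit of the epithelial sodium channel, read 6.39, 6.5 and 6.56 against 5.80, 5.74 and 5.97 (-0.64 ± 0.12). Clca4a, of the calcium-activated chloride channel regulator family, was the member called higher (0.62 ± 0.13), with a dimmer cluster at 0.17. The calcium pumps of the endoplasmic reticulum, Atp2a2 and Atp2a3, differed by -0.59 ± 0.13 and -0.64 ± 0.15, the lipid flippase Atp8a1 by -0.61 ± 0.15 and the sodium pump subunit Atp1b3 by -0.59 ± 0.12, which were the 4 calls among 46 ATPases. The 4 were 8.7% of that list, against 1.96% called lower over all clusters. With 1 array left out the ATPase calls numbered 0 (Nfat5IEC-KO array 1), 1 (Nfat5IEC-KO array 3), 2 (Nfat5fl/fl array 2) or up to 4. Bile acid and organic ion carriers, the defining transport of the ileum, had 0 calls of 20: the apical bile acid carrier Slc10a2 read 9.97, 10.7 and 10.5 in controls and 9.85, 9.95 and 10.4 in Nfat5IEC-KO mice (-0.30 ± 0.21).

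**Figure D2:**
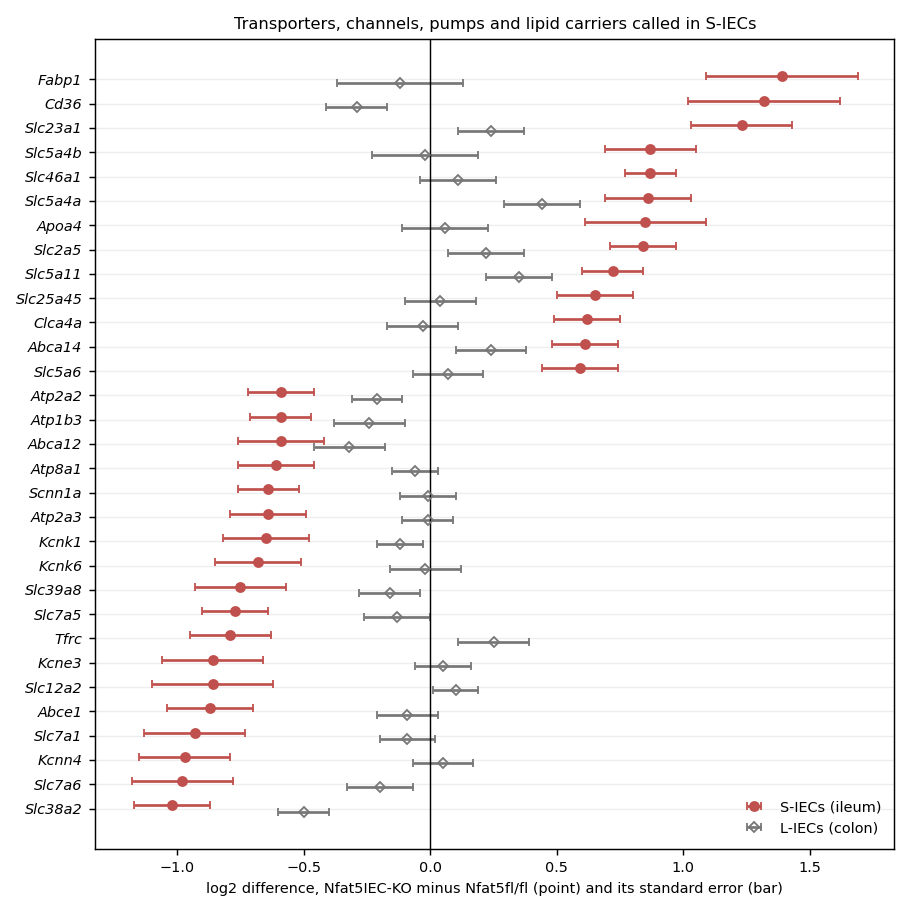
Log2 difference between Nfat5IEC-KO and Nfat5fl/fl (x axis) for 31 named transporters, channels, pumps and lipid carriers called in S-IECs, with standard errors as bars; red circles are S-IECs and grey diamonds L-IECs. Differences in S-IECs run from -1.02 for Slc38a2 to 1.39 for Fabp1, while those in L-IECs run from -0.50 for Slc38a2 to 0.44 for Slc5a4a.

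Enzymes of the brush border were called in 1 direction. Of 24 measured, 8 were called higher (33.3%, against 0.702% of all clusters) and 0 lower, with a median of 0.25. In 16 of them all Nfat5IEC-KO arrays lay above all control arrays, as was so for 9.8% of all clusters. Lactase (Lct, chromosome 1), which splits milk sugar, read 10.1, 9.23 and 9.26 in controls and 10.5, 11.0 and 10.4 in Nfat5IEC-KO mice (1.10 ± 0.26, adjusted p = 0.137, limma; 0.0979 over 12 arrays). Mme (neprilysin), a peptidase that cuts signalling peptides, read 9.96, 9.75 and 9.85 against 10.6, 10.9 and 10.7 (0.89 ± 0.12). Asah2, the neutral ceramidase that digests dietary sphingolipid, was higher by 0.88 ± 0.24. The angiotensin-converting enzyme Ace (0.70), the ecto-nucleotidase Nt5e (0.66), the alkaline sphingomyelinase Enpp7 (0.65, with overlap) and trehalase, Treh (0.59), completed the 8. The abundant hydrolases were not called: sucrase-isomaltase (Sis) differed by 0.25 ± 0.11, aminopeptidase N (Anpep) by 0.08 ± 0.10 and alkaline phosphatase (Alpi) by 0.36 ± 0.12. With Nfat5IEC-KO array 2 or Nfat5fl/fl array 3 left out, 5 of the 24 were called higher.

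Cytochrome P450 genes, which oxidise drugs and lipids, gave 10 higher calls and 1 lower of 79 measured, with a median of 0.12. These were 12.7% and 1.27%, against 0.702% and 1.96% of all clusters. Cyp2c66 read 3.27, 2.97 and 2.97 in controls and 3.75, 4.53 and 4.04 in Nfat5IEC-KO mice (1.04 ± 0.19). Cyp4v3, at higher levels, read 9.93, 9.45 and 9.42 against 10.3, 10.6 and 10.3 (0.81 ± 0.16). Cyp3a11, the main drug-oxidising enzyme of the mouse gut and liver, read 6.43, 5.56 and 5.59 against 6.95, 6.52 and 6.56 (0.82 ± 0.23, adjusted p = 0.18, limma; 0.0593 over 12 arrays), with control array 1 close to the Nfat5IEC-KO values. The others called higher were Cyp2b10, Cyp2j6, Cyp2j8, Cyp4b1, Cyp2d26, Cyp2u1 and Cyp3a13, from 0.62 to 1.14, and Cyp2d9 was called lower (-0.72). P450 genes of 1 family share sequence, and probes may read more than 1 of them. Conjugating enzymes had 1 call in each direction of 52, although Ugt2a3, which couples lipids and drugs to glucuronic acid, was higher by 1.23 ± 0.31. Retinoid and alcohol metabolism added Rbp2, the retinol carrier of the enterocyte (0.73 ± 0.14), Adh6a (0.90 ± 0.21) and Hsd17b6 (0.92 ± 0.25), against Dhrs9, a retinol dehydrogenase with a TonE match, at -0.73 ± 0.17.

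Of 34 sphingolipid and phospholipid enzymes 5 were called higher and 0 lower, among them Smpdl3b (0.77 ± 0.14) and Pcyt1a (0.67 ± 0.13), which controls phosphatidylcholine synthesis. The count was 3 without Nfat5fl/fl array 2 or 3 or Nfat5IEC-KO array 1 or 2. Of 27 genes of cholesterol and fatty acid synthesis 4 were called lower and 0 higher: the desaturases Scd1 (-0.71 ± 0.20), Fads1 and Fads2, and fatty acid synthase, Fasn, which read 7.82, 7.93 and 8.01 in controls and 6.92, 7.68 and 7.29 in Nfat5IEC-KO mice. None of the 4 passed an adjusted p of 0.05 over 12 arrays (limma), the list's median was near 0, and the count was 1 without Nfat5fl/fl array 3 and 2 without Nfat5IEC-KO array 1. Triglyceride synthesis and lipoprotein assembly had 2 lower and 2 higher calls of 29. The list of carboxylesterases and lipases, matched by symbol, had 4 lower of 53 (7.55%, against 1.96% of all clusters). These were Pla2g10os, by its name an opposite-strand transcript, Pla2g2a and Pnliprp2, both also on the Paneth cell list, and Ces1f (-0.77 ± 0.15). Angptl4, a secreted inhibitor of lipoprotein lipase, read 7.09, 6.96 and 6.97 against 5.86, 6.20 and 6.43 (-0.84 ± 0.15). Pdk4, which closes the entry of pyruvate into the citric acid cycle, was also called lower (-0.78, with overlap), while citric acid cycle genes had 0 calls of 25 and oxidative phosphorylation subunits 0 of 82, with a median of -0.05 for each list.

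Enzymes of nucleotide synthesis were called lower in 9 of 27, with 0 higher and a median of -0.42. Atic, which closes the last steps of purine synthesis, read 7.36, 7.67 and 7.59 in controls and 6.36, 7.04 and 6.58 in Nfat5IEC-KO mice (-0.88 ± 0.18, adjusted p = 0.13, limma; 0.0239 over 12 arrays). Ppat, the enzyme that commits to that pathway, differed by -0.81 ± 0.21, and the uridine kinase Uck2 by -0.67 ± 0.15. Nme1, a nucleoside diphosphate kinase with the E-box shown above, read 6.66, 6.54 and 6.83 against 6.03, 6.39 and 5.43. Breakdown of nucleotides had 2 higher calls (Enpp3 and Nt5e) and 1 lower (Ampd2) of 22. Among one-carbon enzymes, which supply nucleotide synthesis, 3 of 28 were called lower: Shmt2 (-0.81 ± 0.19), Shmt1 (-0.72 ± 0.20) and Mthfd1 (-0.64 ± 0.21). The one-carbon count was 6 without Nfat5IEC-KO array 2, and 2 without Nfat5IEC-KO array 1 or 3 or Nfat5fl/fl array 2. Cps1, which makes carbamoyl phosphate for citrulline synthesis, read 10.1 to 10.4 in controls and 9.17 and 9.37 on Nfat5IEC-KO arrays 1 and 3 and stood nearer to controls on array 2 (-0.79 ± 0.21), and asparagine synthetase, Asns, differed by -0.74 ± 0.20. Without Nfat5IEC-KO array 2, 13 of the 27 nucleotide synthesis genes were called lower, and 4 were called without Nfat5IEC-KO array 1 or without Nfat5fl/fl array 2. The carbonic anhydrase Car1 was called lower (-3.07 ± 1.14) on uneven controls, with 4.32, 9.75 and 8.59 in Nfat5fl/fl mice and 4.97, 3.65 and 4.84 in Nfat5IEC-KO mice, so that control array 1 lay within the Nfat5IEC-KO values; Car1 is also on the list of colon epithelium markers, whose mean level was 5.73 to 6.41 in controls and 5.73 to 5.96 in Nfat5IEC-KO mice. Car8 read 6.72, 7.03 and 6.89 against 5.97, 6.54 and 6.03 (-0.70 ± 0.17).

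Nuclear receptors had 1 call of 44 and regional transcription factors 1 of 35, Ehf, an epithelial ETS factor (-0.65 ± 0.16); Cdx2, which sets intestinal identity, differed by -0.04 and Hnf4a by -0.12. The coactivator Ppargc1a, which drives mitochondrial and oxidative genes and was singled out after its values were seen, read 7.78, 7.84 and 7.90 in controls and 8.52, 8.60 and 8.54 in Nfat5IEC-KO mice (0.71 ± 0.10, adjusted p = 0.112, limma).

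Corticosteroid-responsive genes were called lower in 6 of 20, with a median of -0.17 and 1 higher (Sgk3, 0.66). The 6 were Sgk1, Fkbp5, Per1, Hsd11b2, Scnn1a and Fkbp4, a co-chaperone that is on the heat shock list too. Sgk1, a kinase induced by aldosterone, glucocorticoid and hypertonicity, read 9.43, 9.36 and 8.86 on the Nfat5fl/fl arrays and 8.26, 8.09 and 8.62 on the Nfat5IEC-KO arrays (-0.89 ± 0.19, adjusted p = 0.134, limma; 0.074 over 12 arrays). Fkbp5, a co-chaperone of the glucocorticoid receptor and a standard target of it, read 6.49, 6.92 and 6.42 against 5.24, 5.68 and 6.05 (-0.95 ± 0.21). Hsd11b2, the enzyme that inactivates corticosterone in aldosterone target cells, read 6.75, 7.14 and 7.01 against 6.35, 6.39 and 6.04 (-0.70 ± 0.15). In Sgk1, Fkbp5 and Per1, array 3 of the Nfat5IEC-KO mice, and not array 2, lay nearest to the controls. The receptors themselves were not called, with 0.15 ± 0.11 for the glucocorticoid receptor, Nr3c1, and 0.01 ± 0.13 for the mineralocorticoid receptor, Nr3c2.

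Among 18 clock genes, Per1 was called lower and Nr1d1 and Dbp higher. Per1 (chromosome 11), which both the clock and glucocorticoid drive, read 7.74, 8.09 and 7.37 in controls and 6.5, 6.53 and 7.04 in Nfat5IEC-KO mice (-1.04 ± 0.21, adjusted p = 0.13, limma; 0.034 over 12 arrays). Nr1d1 (REV-ERB alpha), a repressor in the clock, read 8.03, 8.10 and 8.18 against 9.22, 8.74 and 8.74 (0.79 ± 0.15), and Dbp, an output factor of the clock, was higher by 0.62 ± 0.18. The core activators were not called, with 0.02 ± 0.12 for Arntl and 0.01 ± 0.11 for Clock. These genes cycle over the day, the sources used here do not state the hour of sampling, and its part in these differences was not tested.

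Signals between cells gave a few calls. Fgf15, the hormone by which the ileum reports bile acids to the liver, read 9.10, 8.61 and 8.59 in controls and 8.08, 8.04 and 8.09 in Nfat5IEC-KO mice (-0.70 ± 0.15, adjusted p = 0.134, limma; 0.0589 over 12 arrays); a dimmer cluster of the gene differed by -0.18. Bmp2, a signal from mature villus cells, read 7.02, 7.06 and 7.01 against 7.88, 7.93 and 7.55 (0.75 ± 0.13). Atoh1, the factor that starts the secretory lineage, differed by -0.74 ± 0.19. The chemokine Cxcl16, a ligand for lymphocytes, read 6.81, 6.54 and 6.71 against 7.76, 7.50 and 7.63 (0.94 ± 0.12, adjusted p = 0.112, limma; 0.00838 over 12 arrays), and Ccl20 was higher by 0.62 ± 0.18; these were the 2 calls of 40 in that list. Interferon-stimulated genes had 0 calls of 38 and class II presentation genes 0 of 14. The osmoprotective targets of NFAT5 gave 4 lower calls of 16 (25%, against 1.96% of all clusters) and a median of -0.03. The 4 were the HSP70 genes Hspa1b and Hspa1a with Slc38a2 and Sgk1. The taurine transporter Slc6a6 read 9.63, 9.77 and 9.80 in controls and 9.24, 9.27 and 9.33 in Nfat5IEC-KO mice, a gap of -0.45 ± 0.11 below the fold limit with the groups apart, while the betaine transporter Slc6a12 stood at 0.03 ± 0.11.

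**Figure D3:**
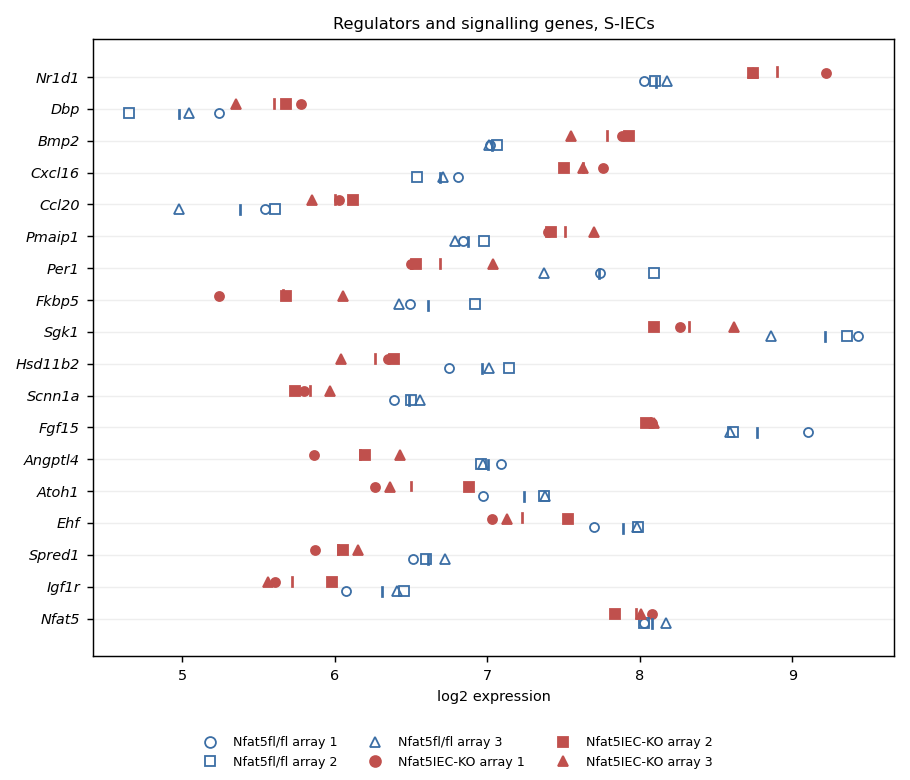
Log2 expression (x axis) of 18 regulators and signalling genes in S-IECs, 1 gene a row; open symbols are Nfat5fl/fl arrays, filled symbols Nfat5IEC-KO arrays, and vertical ticks the group means. Bmp2, Cxcl16 and Nr1d1 lie higher on all Nfat5IEC-KO arrays and Per1, Fkbp5, Sgk1 and Fgf15 lower, while the Nfat5 values overlap.

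Of 38 ribosome biogenesis genes, 22 were called lower and 0 higher, the median was -0.64, and 17 of the 22 passed an adjusted p of 0.05 over 12 arrays (limma). Gnl3 (nucleostemin), a nucleolar GTPase of dividing cells, read 6.92, 7.02 and 6.80 in controls and 5.61, 6.19 and 5.50 in Nfat5IEC-KO mice (-1.14 ± 0.18). Heatr1 and Utp4, parts of the machine that processes the small subunit RNA, differed by -1.01 ± 0.26 and -0.99 ± 0.17. Nolc1, a nucleolar scaffold with a TonE match, was called lower by -0.85, and the RNA polymerase I subunits Polr1a and Polr1b by -0.62 ± 0.18 and -0.69 ± 0.18. Stem cell and mitosis genes were lower on the same arrays: the mean deviations of the ribosome biogenesis list were -0.67, -0.35 and -0.70 on Nfat5IEC-KO arrays 1, 2 and 3, and those of the mitosis list -0.77, -0.24 and -0.73. Without Nfat5IEC-KO array 2, 24 of the 38 were called lower, and without Nfat5IEC-KO array 1, 18. Myc, the transcription factor that drives ribosome synthesis and is also on the stem cell list, read 7.53, 7.25 and 7.41 against 6.47, 6.64 and 6.29 (-0.93 ± 0.13, adjusted p = 0.112, limma; 0.0203 over 12 arrays), with the groups apart.

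Aminoacyl-tRNA synthetases and their scaffold had 6 lower calls of 21 and a median of -0.40, led by Eef1e1 (-0.78 ± 0.19) and the isoleucine enzyme Iars, with 7.84, 7.91 and 7.90 in controls and 7.07, 7.49 and 7.06 in Nfat5IEC-KO mice. Genes with symbols of cytosolic ribosomal proteins had 4 lower calls and 1 higher of 67 (5.97% and 1.49%, median -0.33). The 4 were Rpl14, Rps13, Rpsa and Rpl7l1, by its symbol an Rpl7-like gene. Mitochondrial ribosomal proteins had 2 lower of 71 and translation factors 2 lower of 64, near the share of all clusters (medians -0.16 and -0.21). Nuclear transport receptors and pores had 9 lower of 52 (17.3%, against 1.96% of all clusters, median -0.32). Among them were the importin Ipo5 (-1.02 ± 0.24) and the microRNA exporter Xpo5 (-0.79 ± 0.15). The tRNA methyltransferase subunit Trmt61a read 5.53, 5.74 and 5.69 against 4.44, 4.95 and 4.45 (-1.04 ± 0.16). Pus7, a pseudouridine synthase, differed by -0.68 ± 0.15. Leaving out each array in turn gave 1 to 10 lower calls for the cytosolic ribosomal proteins (1 without Nfat5IEC-KO array 3, 10 without Nfat5IEC-KO array 2 or Nfat5fl/fl array 1) and 1 to 6 for the mitochondrial ones. It gave 4 to 14 for nuclear transport and 2 to 6 for the synthetases, the lowest of each without Nfat5IEC-KO array 1.

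Lower calls among chaperones were found in several compartments. In the cytosol, 5 of 27 heat shock genes were called, including Stip1 (-0.84 ± 0.13), which links HSP70 to HSP90, and Hsp90aa1, with 6.68, 6.87 and 6.78 in controls and 6.02, 6.08 and 5.95 in Nfat5IEC-KO mice (-0.76 ± 0.11, adjusted p = 0.112, limma; 0.0203 over 12 arrays). In mitochondria, the chaperonin pair Hspd1 and Hspe1, neighbours on chromosome 1, differed by -0.92 ± 0.15 and -0.84 ± 0.15, with adjusted p-values of 0.121 and 0.13 (limma; 0.0191 for both over 12 arrays). Of 17 cytosolic and mitochondrial chaperonin and prefoldin genes 4 were called lower (2 without Nfat5IEC-KO array 1), with a median of -0.41. In the endoplasmic reticulum 8 of 44 were called lower, with Hspa5 (BiP, itself of the HSP70 family) at 9.15, 9.06 and 8.77 in controls and 8.0, 8.35 and 8.08 in Nfat5IEC-KO mice (-0.85 ± 0.14), Herpud1 at -0.75 ± 0.14 and the disulfide isomerase Pdia6 at -0.72 ± 0.15. That count was 5 without Nfat5fl/fl array 2 and 12 without Nfat5IEC-KO array 2. Proteasome genes had 1 call of 49, the assembly chaperone Psmg1 (-0.75 ± 0.14), and lysosome and peroxisome genes had 0 calls of 36 and of 24.

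Genes of DNA replication had 6 lower calls of 41, with a median of -0.37, beside the mitosis list already given. Mcm5, part of the replicative helicase, read 7.01, 7.19 and 7.04 in controls and 5.94, 6.75 and 6.21 in Nfat5IEC-KO mice (-0.78 ± 0.19), and the damage sensor Parp1 read 7.12, 7.48 and 7.25 against 6.70, 6.56 and 6.39 (-0.74 ± 0.14). The count was 16 of 41 without Nfat5IEC-KO array 2, 12 without Nfat5fl/fl array 1, 3 without Nfat5IEC-KO array 1, and 4 without either Nfat5IEC-KO array 3 or Nfat5fl/fl array 3. The arginine methyltransferases Prmt5, Prmt3 and Prmt1 differed by -0.76 ± 0.17, -0.72 ± 0.17 and -0.68 ± 0.18, and the maintenance DNA methyltransferase Dnmt1 by -0.59 ± 0.15. Junction genes had 1 call of 55, the pore-forming claudin Cldn2, with 5.80, 5.95 and 6.30 in controls and 5.01, 5.71 and 5.29 in Nfat5IEC-KO mice (-0.68 ± 0.20).

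**Figure D4:**
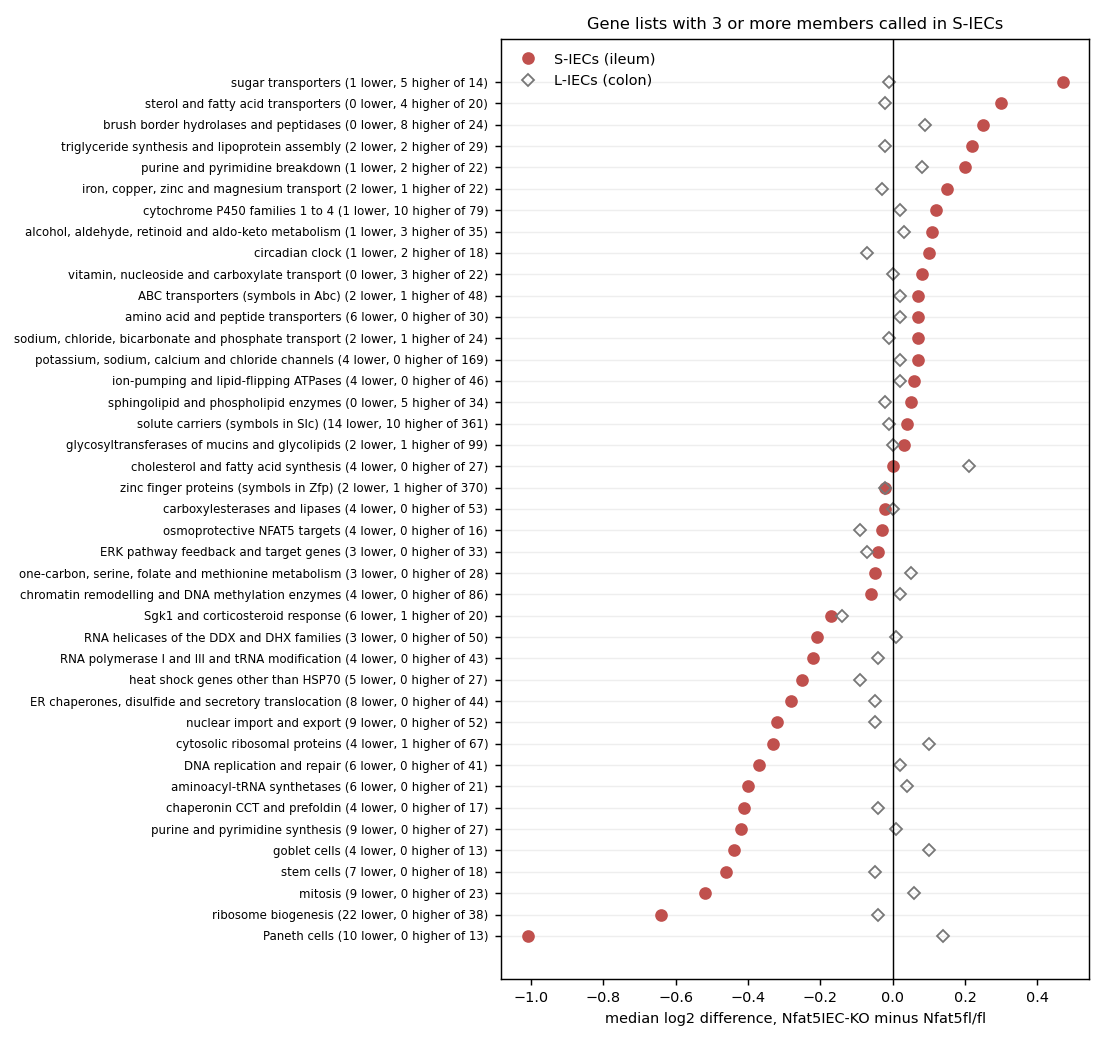
Median log2 difference (x axis) of each gene list with 3 or more called members in S-IECs, with the counts called in S-IECs beside its name; red circles are S-IECs and grey diamonds L-IECs. The medians in S-IECs run from -1.01 for Paneth cell genes to 0.47 for sugar transporters.

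The order of the 3 Nfat5IEC-KO arrays differed between these groups. Several lists called lower stood closest to controls on Nfat5IEC-KO array 2: -0.16 for nucleotide synthesis against -0.47 and -0.46 on arrays 1 and 3, -0.14 against -0.48 and -0.45 for DNA replication, and -0.19 against -0.42 and -0.35 for nuclear transport. Brush border enzymes deviated by 0.42, 0.43 and 0.36 on arrays 1, 2 and 3, sugar transporters by 0.37, 0.49 and 0.17, and sterol and fatty acid transporters by 0.37, 0.47 and 0.25. The corticosteroid list stood nearest to controls on array 3, with -0.28, -0.31 and -0.11. Cholesterol and fatty acid synthesis deviated by -0.22, -0.05 and -0.0, against -0.19, -0.01 and 0.2 on Nfat5fl/fl arrays 1, 2 and 3. Nfat5IEC-KO arrays 2 and 3 thus lay within the control range of that list. Carbonic anhydrases deviated by -0.26, -0.44 and -0.30, against -0.33, 0.22 and 0.12 on the Nfat5fl/fl arrays. Control array 1 thus lay below Nfat5IEC-KO arrays 1 and 3 there. Of the controls, array 1 stood toward the Nfat5IEC-KO side for brush border enzymes, at 0.14, and for mitosis, at -0.26. The latter lay below the -0.24 of Nfat5IEC-KO array 2, so the groups overlapped on the mitosis list.

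**Figure D5:**
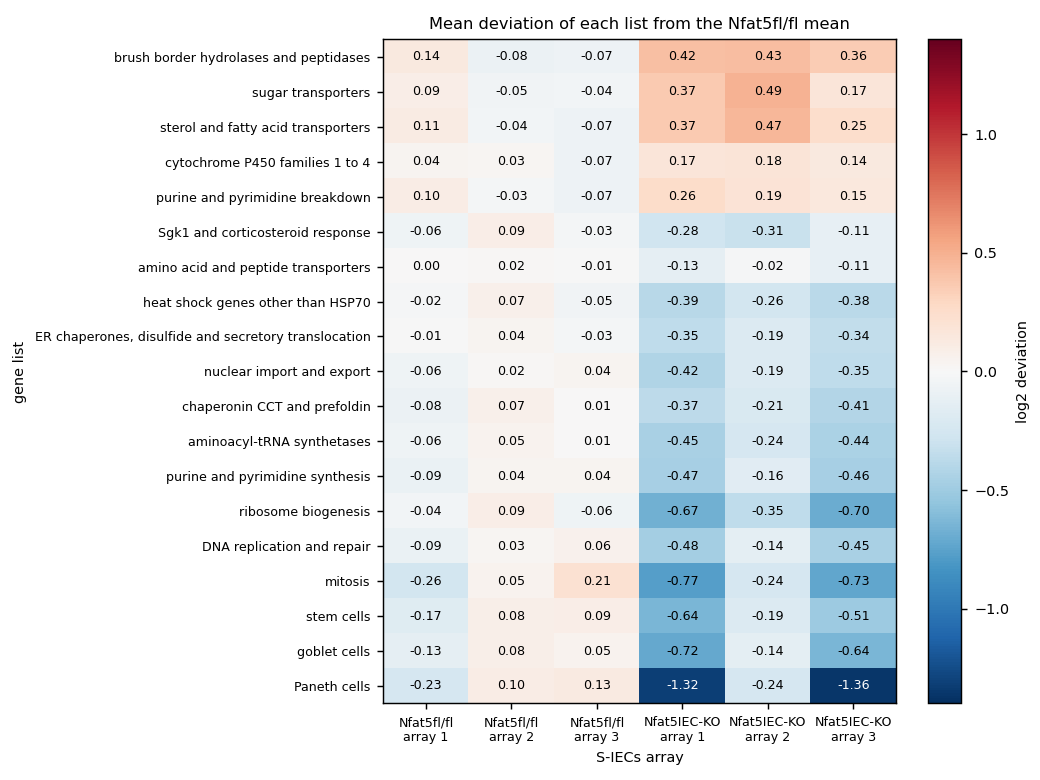
Mean log2 deviation from the Nfat5fl/fl mean of 19 gene lists (rows) on each of the 6 S-IECs arrays (columns), as colour and as printed value. On Nfat5IEC-KO array 2 Paneth cell genes lie at -0.24, against -1.32 and -1.36 on arrays 1 and 3, while brush border enzymes lie at 0.43 and the corticosteroid list at -0.31. On Nfat5fl/fl array 1 Paneth cell genes lie at -0.23.

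In L-IECs of the same genotypes 60 clusters were called lower (0.237%) and 55 higher (0.217%). Clusters called lower in both tissues numbered 8, or 1.61% of those called in S-IECs and 13.3% of those in L-IECs, and they covered Hsph1, Hspa1b, Hspa1a, Hspa8 with 2 clusters, Etv5, Sgk1 and Slc1a4. Of the 4 called higher in both, 2 were Mt1 and Mt2. The 2 Etv5 clusters disagreed in S-IECs, at -0.92 for the dimmer and -0.03 for the brighter. Sgk1 differed by -0.79 in L-IECs and Slc38a2 by -0.50. Ribosome biogenesis, nucleotide synthesis, sugar transport and P450 lists had medians of -0.04, 0.01, -0.01 and 0.02 in L-IECs. The test of the difference between the tissues (interaction contrast over 12 arrays, limma) called 0 clusters after adjustment, the smallest adjusted p being 0.0609 (0 with the mouse block too), and 2744 had p under 0.05 before it. None of the differences above is thus shown to be particular to the ileum at that threshold.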

How the data were processed

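The log2 expression values per transcript cluster were deposited by the authors, who made them in the Transcriptome Analysis Console with mm10 annotation, per the submitters' processing notes; the sources used here do not state its version, the normalization or the summary method, which decide the scale on which fold changes are measured. Every value column matched 1 sample (0 matched none). Nothing was filtered or rescaled.

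Groups were taken from the labels. limma 3.58.1 in R 4.3.3 (lmFit and eBayes) compared the 3 Nfat5IEC-KO with the 3 Nfat5fl/fl S-IECs arrays over 25341 clusters with a gene symbol, with Benjamini-Hochberg adjustment, and the interaction with L-IECs was fitted on all 12 arrays, also with arrays of both tissues that share a genotype and mouse number as a random block (duplicateCorrelation), an alternative added after seeing the data. The script was tested on simulated data. With 3 arrays a group their number limits the precision. A gene in a list was read from 1 cluster, the one with the highest mean. No set test was run. Promoters came from RefSeq tables of GRCm38.p6; the metal response and DR1 elements that the plan listed were not searched.

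Genes were named by a rule: the 12 largest differences each way among called clusters of 1 symbol without overlap (leaving out predicted genes, small RNAs, immune receptor segments, metallothioneins, HSP70 genes and the stem, Paneth and goblet cell lists), up to 4 called members of each list without overlap, or else the 2 with the smallest p, and Nfat5. Members named beyond that rule, to complete a count or as uncalled members of a pathway, were chosen after their values were seen. The members and lists were chosen with earlier results of these data known. Alternatives covered the fit, its variance model, array weights, normalization, a filter on dim clusters, the clusters included, the mouse number as a block, the fold limit and each array left out. Python 3.11.15, pandas 2.3.3 and matplotlib 3.10.9 were used for summaries and plots.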

Additional observations from a re-analysis of the deposited data

Results flagged for a closer look

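Clusters without a gene symbol were outside the comparisons above. When all 41345 clusters were fitted, 3 of these were higher in Nfat5IEC-KO S-IECs at an adjusted p under 0.05 (limma). Cluster 17550683 read 7.26 to 7.32 on the Nfat5fl/fl arrays and at least 9.84 on each Nfat5IEC-KO array (2.61 ± 0.11, adjusted p = 0.00187). Cluster 17551165 differed by 2.55 ± 0.12 (adjusted p = 0.00288, limma) and cluster 17550687 by 2.22 ± 0.15 (adjusted p = 0.0117, limma), with all Nfat5IEC-KO arrays above all control arrays in both. In L-IECs the 3 clusters differed by 0.73, 1.04 and 0.60 in that order. Which genes they read is not known here.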

How the results depend on the processing

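Counts at an adjusted p under 0.05 (0 lower and 2 higher in the reported test) changed with the fit, the clusters and the arrays included. They were 444 lower and 127 higher when the 12 arrays were fitted together, the same with arrays of 1 genotype and mouse number in both tissues as a replicate block (added after seeing the data), 314 and 166 with a variance trend and robust eBayes, and 114 and 56 with only the 12670 brighter clusters; 5 were higher over every cluster of the table, and 0 by the methods' t-test. Leaving out each array in turn gave 0 to 203 lower and 2 to 23 higher, with 203 and 23 without Nfat5IEC-KO replicate 2 and 2 lower without Nfat5fl/fl replicate 1. Called clusters at 1.5-fold (496 lower, 178 higher) numbered 910 and 443 over every cluster, 39 and 16 at a 2-fold limit, and 108 higher among brighter clusters; leaving out each array gave 383 to 857 lower and 192 to 300 higher, the highest of each without Nfat5IEC-KO replicate 2. The difference between tissues had 84 clusters with the trend and robust fit, 6 among brighter clusters, and 0 to 239 with single S-IECs arrays left out, 239 without Nfat5IEC-KO replicate 2 and 2 without Nfat5fl/fl replicate 1. The cause of these changes was not tested. Deviations of same-numbered arrays of the 2 genotypes correlated by 0.100, 0.049 and -0.003, and those of differently numbered arrays by -0.114 to 0.073. With 3 arrays a group these values cannot decide whether mouse numbers pair the samples. With the mouse number as a replicate block 499 clusters were called lower and 178 higher. Of the single-gene values under the alternatives, 2796 kept direction and side of the threshold, 375 newly passed it, and 1 changed sign: Jchain, at 0.28 with all arrays and -0.02 to 0.49 with single arrays left out, the lowest without Nfat5IEC-KO replicate 1.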
